A study of Mus musculus with 4 samples.

Results

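Colony-stimulating factors and the interleukin-6 (IL-6) family are secreted proteins by which T cells act on myeloid cells, on tissue and on one another. The 9 genes described here were taken by symbol, with 1 row each in both deposited tables, out of 22144 gene symbols present in both. They are the ligand genes Il3, Csf2, Csf1, Lif and Osm and the receptor chain genes Csf2rb, Csf2rb2, Il6ra and Il6st. They were measured by RNA sequencing in 4 libraries of induced regulatory T cells, 2 labelled MSC KO and 2 labelled WT. All came from C57BL/6 mice, as sorted naive T cells held for 3 days in culture with TGF-beta (2 ng/ml) and CD3 and CD28 antibodies coated on the plate (1 µg/ml); TGF-beta induces the transcription factor Foxp3. Musculin (MSC) is a transcription factor of the basic helix-loop-helix class. The sources used here do not give the allele, whether the deletion was limited to a cell type, the age of the mice, or whether replicates were separate animals or cultures, so each p-value reflects the spread between these libraries alone, and that spread may be technical.

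The targeted gene went against the labels. Msc stood at 0.331 and 0.939 FPKM in MSC KO-labelled libraries 1 and 2, about 16.2 and 52.4 fragments, and at 0.0243 and 0.0178 FPKM, about 1.1 fragments each, in WT libraries 1 and 2. FPKM are fragments scaled to transcript length and to the number of mapped fragments, and the first of each pair of values is replicate 1. The part of Msc that was targeted is not given, and every direction below holds for the libraries as labelled. Depth, read from the step that 1 fragment makes among low values, was estimated at 25500000 to 34300000 fragments. It is a median over 32 to 55 genes per library whose own estimates fell in a preset range. The median could thus only fall in that range, and every fragment number and counting interval below rests on it. Foxp3, which defines regulatory T cells, was at 2.97 and 7.05 FPKM under the MSC KO label and 62.8 and 66 FPKM in WT. Of 6 regulatory T cell markers, Foxp3 included, 3 lay below WT and 2 above it in both tables. Of all genes tested, 37.5% lay below and 31.2% above. Ctla4, among the markers above WT, was at 217 and 188 FPKM under the MSC KO label and 112 and 120 FPKM in WT. The summed level of 7 T cell markers was 1600 and 1490 FPKM under the MSC KO label and 1620 and 1660 FPKM in WT. Of these 7, 4 lay below WT and 1 above it in both tables, against the shares of all genes just given. The 2 MSC KO-labelled libraries stood further apart than the 2 WT libraries: the median gene differed by 0.28 between replicates on the log2 scale under the MSC KO label and by 0.097 in WT, over 731 and 717 genes with a single annotated transcript. In bulk RNA, a change in the share of cells that make a transcript cannot be told apart from a change per cell.

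IL-3 and GM-CSF (the product of Csf2) are made by activated T cells and drive growth and activation of myeloid cells. Their receptors join a ligand-specific alpha chain (Il3ra, Csf2ra) to a beta chain encoded by Csf2rb, and the mouse has a close copy, Csf2rb2, that serves IL-3. CSF-1, made by many cell types, acts on macrophages through Csf1r. IL-6, LIF, oncostatin M (Osm) and their relatives signal through gp130, encoded by Il6st, with a partner such as Il6ra, Lifr or Osmr, by way of JAK kinases and STAT3, and STAT3 induces the inhibitor Socs3.

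Upstream sequences of Il3, Csf2 and Lif, the 3 ligand genes with the largest mean differences, are shown with motifs of factors that act in activated T cells. They are 250 bases before the RefSeq start in GRCm38.p6, a different build from that of the tables, which is mm9. Capitals mark AGATAA, a motif of the GATA factors, TGTGGT, a motif of Runx factors, and TGANTCA, a motif of AP-1, each searched on both strands, as was TTCNNNGAA, a motif of STAT factors. The windows are chr11:54267280-54267529 on the minus strand, chr11:54249900-54250149 on the minus strand and chr11:4257318-4257567 on the plus strand.
Il3: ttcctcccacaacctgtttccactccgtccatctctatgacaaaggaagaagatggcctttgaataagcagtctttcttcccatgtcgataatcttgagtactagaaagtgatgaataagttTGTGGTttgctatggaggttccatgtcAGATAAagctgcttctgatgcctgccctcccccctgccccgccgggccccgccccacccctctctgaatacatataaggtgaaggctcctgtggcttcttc
Csf2: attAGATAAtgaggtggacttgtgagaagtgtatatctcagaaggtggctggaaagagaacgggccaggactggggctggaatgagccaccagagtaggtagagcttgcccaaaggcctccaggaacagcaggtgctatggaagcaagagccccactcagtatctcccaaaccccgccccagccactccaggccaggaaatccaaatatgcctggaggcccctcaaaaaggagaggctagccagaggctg
Lif: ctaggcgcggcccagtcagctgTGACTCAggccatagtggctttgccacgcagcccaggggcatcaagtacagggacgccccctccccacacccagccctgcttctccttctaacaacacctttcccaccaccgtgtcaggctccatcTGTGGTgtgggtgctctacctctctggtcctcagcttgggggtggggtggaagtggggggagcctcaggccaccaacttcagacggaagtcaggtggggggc
AGATAA occurred in the Il3 window 101 bases and in the Csf2 window 247 bases before the start, and 10.3% of 27025 mouse promoter windows of the same length held it. The Il3 and Lif windows each held TGTGGT, found in 14.2% of windows, and the Lif window held TGACTCA, a form of the AP-1 motif found in 6.87%. The E-box CANNTG, the motif class of basic helix-loop-helix factors, was absent from the Il3 window, occurred at 1 position for Csf2 and at 3 positions for Lif, and was in 66.0% of windows. TTCNNNGAA, in 7.18% of windows, was in none of these 3. The start of Csf2 in GENCODE lies 232 bases downstream of the RefSeq start used here, so that the window lies further from that start than those of Il3 and Lif. The letters describe the windows, and no factor's binding was measured.

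The ligand transcripts differ in the 3' untranslated region (3' UTR), where the pentamer ATTTA marks AU-rich elements, the sequences by which many cytokine mRNAs are kept short-lived. Below are the 30-base stretches with the most pentamers within annotated 3' UTRs, with pentamers in capitals. Those of Csf2 overlap, and those of the other ligands shown do not. The annotated 3' UTR of Il3 is short, at 104 bases, and sequence beyond it was not searched.
Csf2: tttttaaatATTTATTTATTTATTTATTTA
Lif: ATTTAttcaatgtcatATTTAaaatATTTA
Osm: aatccgttttatATTTAtaaggcctATTTA
Il3: ctttatgccatcaaatgtcttatcaATTTA
Csf2 had 9 pentamers in a 3' UTR of 320 bases (28.1 per kb), a density reached by 0.0858% of 20974 coding genes in GENCODE M21. It was the only one of the 9 genes with the overlapping form ATTTATTTA in its annotated 3' UTR, a form found in 6.14% of coding genes. Il3 had 9.62 per kb, a density reached by 1.34% of coding genes, from 1 pentamer in an annotated 3' UTR of 104 bases. Osm had 5.88 per kb, Lif 2.2 per kb and Csf1 1.89 per kb, against a median of 1.23 per kb over coding genes. Csf2rb and Csf2rb2 had 0.

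Both beta common cytokine genes had their highest level in MSC KO-labelled library 2. Il3 (chromosome 11, mm9, 54078586 to 54080781) was at 22.9 and 74.2 FPKM under the MSC KO label and at 5.11 and 5.79 FPKM in WT. The 2 WT values were close to each other, while the MSC KO-labelled values were 3.25 times apart. The ratio was 4.48 in the first table (95% interval 3.52 to 5.74) and 12.8 for replicate 2 (10.7 to 15.5). These intervals are exact Clopper-Pearson limits on estimated fragments, about 404 and 1500 under the MSC KO label and 81.9 and 125 in WT, and cover counting error only. In the limma fit across all genes, with the table as a block, the difference of Il3 was 2.72 ± 0.42 (SE) on the log2(FPKM + 1) scale, a scale that understates the fold of low genes, and it did not pass the threshold of 0.05 (adjusted p = 0.145). In the authors' deposited table, their test of 1 library against 1 called Il3 in the second table (q = 0.0143) and not in the first (q = 0.312), and it called 0.549% of symbols in the second table (0.352% higher) and 0.655% in the first (0.504% higher). Without MSC KO-labelled library 1 the limma difference of Il3 was 3.55, and without MSC KO-labelled library 2 it was 1.89. Without WT library 1 it was 2.64, and without WT library 2 it was 2.79. Such fits had no block and took their spread from the group that kept both libraries, so only the difference is given.

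Csf2 (chromosome 11, mm9, 54060771 to 54063401) was at 2.54 and 37 FPKM under the MSC KO label and at 1.97 and 2.2 FPKM in WT. One library stood apart: MSC KO-labelled library 2 held 14.6 times the level of its replicate, which lay just above the WT values. The ratio was 1.29 in the first table (95% interval 0.849 to 1.99, on about 56.9 fragments in MSC KO-labelled library 1 and 40.1 in WT 1), so that no difference was detectable there at this depth. It was 16.8 in the second table (13 to 22.4). The limma difference of 1.91 ± 0.91 did not pass (adjusted p = 0.344). Without MSC KO-labelled library 1 the difference was 3.62, and without MSC KO-labelled library 2 it was 0.2. Without WT library 1 or 2 it was 1.86 or 1.97. In the authors' deposited table Csf2 was not called in the second table (q = 0.0593) or in the first (q = 0.999). Only 35 of the 10603 genes tested had a higher difference in the second table than Csf2, and 38 had a higher one than Il3. Above Il3 lay 126 genes in the first table, and above Csf2 lay 2141.

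**Figure D1:**
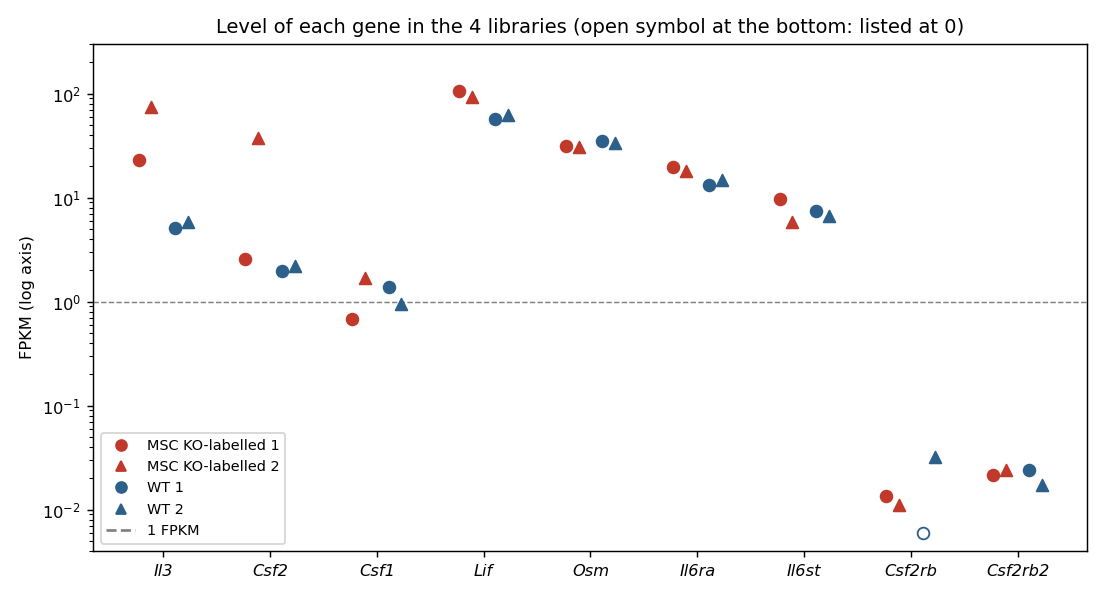
FPKM of the 9 genes (log axis) under the MSC KO label (red, left of each pair) and WT libraries (blue), with circles for replicate 1 and triangles for replicate 2. Csf2 was high in MSC KO-labelled library 2 (37 FPKM), and Csf2rb and Csf2rb2 lay near 0, with an open circle where WT 1 is listed at 0.

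Il3 and Csf2 lie 15.2 kb apart. Within 250 kb of them 6 other genes are listed, 4 of which passed the filter of a mean of at least 1 FPKM. Those 4 differed by -0.38 to 0.9, and 0 of them were 2-fold apart in the same direction in both tables. The nearest, Acsl6, an acyl-CoA synthetase gene, was at 3.59 and 21.3 FPKM under the MSC KO label and at 9.44 and 10.2 FPKM in WT. It was thus below WT in the first table and above it in the second. P4ha2, a subunit of collagen prolyl hydroxylase, was at 14.7 and 15.9 FPKM under the MSC KO label and 7.81 and 7.64 FPKM in WT (0.9 ± 0.09, limma adjusted p = 0.12). The pairs of differences most like that of Il3, by Euclidean distance over the 2 tables, were those of Eno2, a glycolytic enolase gene (distance 0.1), Il17a, a cytokine gene (0.29), and Dapl1 (0.68). Eno2 was at 20.5 and 56.6 FPKM under the MSC KO label and at 4.11 and 4.17 FPKM in WT. Nearest to Csf2 were Mmgt1 (0.63), Cacna1s (0.98) and Scarna3a (1.08). Of these, Mmgt1, which encodes a subunit of the ER membrane protein complex, was at 9.2 and 188 FPKM under the MSC KO label and at 10.7 and 10.7 FPKM in WT.

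**Figure D2:**
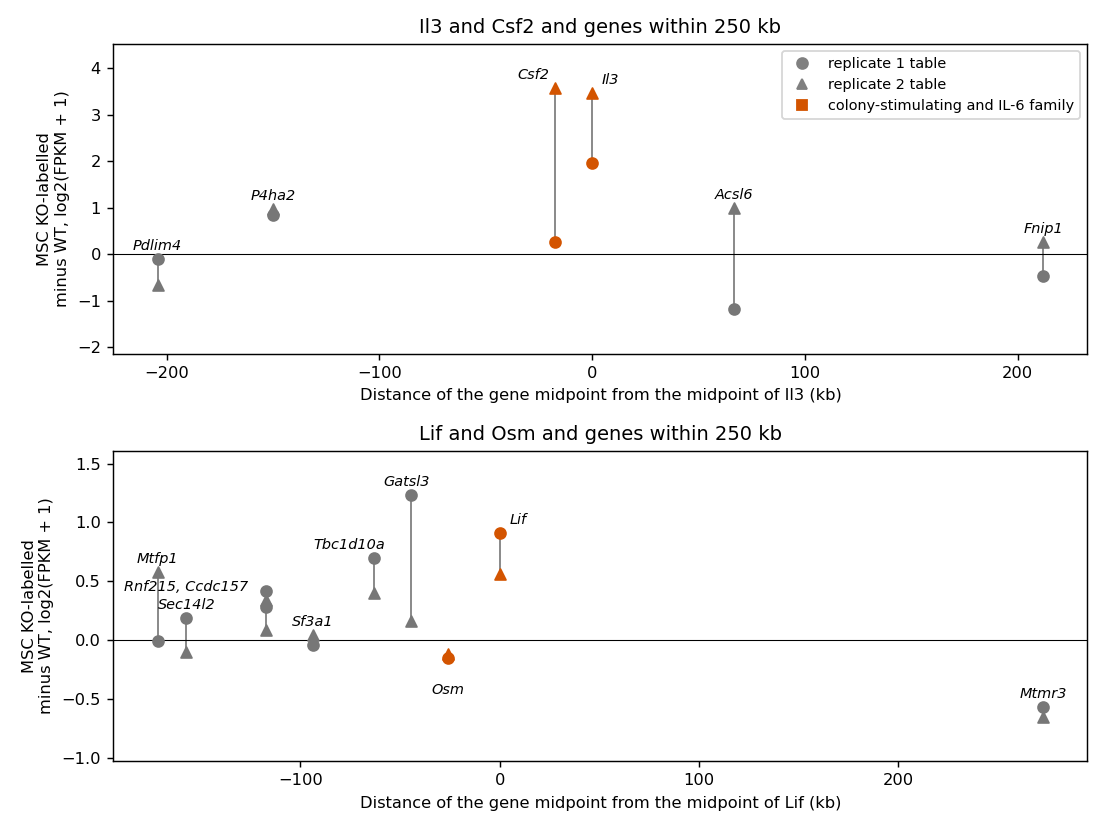
Difference of MSC KO-labelled minus WT on the log2(FPKM + 1) scale, in the replicate 1 table (circles) and the replicate 2 table (triangles), for tested genes within 250 kb of Il3 and Csf2 (top) and of Lif and Osm (bottom), by distance of gene midpoints in kb. Il3 and Csf2 reached 3.47 and 3.57 in the second table while the other genes of the upper panel lay at or under 0.99, and Lif stood above Osm in both tables. A small RNA symbol, Mir3060, is not drawn.

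Csf1 was low and had no shared direction. It was at 0.673 and 1.69 FPKM under the MSC KO label and at 1.38 and 0.94 FPKM in WT, so that the groups overlapped. It lay on chromosome 3 (mm9, 107543965 to 107563387). The ratio was 0.487 in the first table, with a 95% interval of 0.366 to 0.646, and 1.79 (1.44 to 2.23) for replicate 2, intervals of counting error that do not meet. The limma difference was -0.02 ± 0.32 (adjusted p = 0.979). Csf1r, the receptor for CSF-1, was listed at 0 in both MSC KO-labelled libraries and at 0.0441 and 0.0129 FPKM in WT.

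The beta chains were at the limit of detection. Csf2rb was at 0.0134 and 0.0111 FPKM under the MSC KO label, and it was listed at 0 in WT 1 and at 0.0321 FPKM in WT 2. Those are about 1.8 and 1.7 fragments under the MSC KO label and 5.4 in WT 2. Csf2rb2 was at 0.0216 and 0.0239 FPKM under the MSC KO label and 0.0239 and 0.0173 FPKM in WT, with about 2.9 and 3.6 fragments against 2.9 and 2.8. The level that 3 fragments give was 0.018 to 0.025 FPKM for these genes, so no fold is given, and neither entered the limma fit. Csf2rb (mm9, 78156419 to 78181431) and Csf2rb2 (78112939 to 78136033) lie 20.4 kb apart on chromosome 15, and 18.4% of the 50-base stretches of the longest Csf2rb transcript also occur in that of Csf2rb2, so that fragments may have been split between them. Their alpha chain partners were expressed. Il3ra was at 18.6 and 21.7 FPKM under the MSC KO label and 26.4 and 23.8 FPKM in WT (-0.3 ± 0.13, limma adjusted p = 0.311). Csf2ra was at 6.8 and 8.45 FPKM under the MSC KO label and 9.07 and 6.96 FPKM in WT, while Il5ra, the IL-5 alpha chain, stayed between 0.106 and 0.261 FPKM in the 4 libraries. Among the neighbours of the beta chain genes, Il2rb, the beta chain of the IL-2 receptor, was at 237 and 236 FPKM under the MSC KO label and 197 and 198 FPKM in WT.

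Lif was the most abundant of the 9 transcripts in every library. It was at 107 and 92.4 FPKM under the MSC KO label and at 56.6 and 62.3 FPKM in WT (chromosome 11, mm9, 4157570 to 4172518). Within a group the replicates were close. The ratios were 1.89 and 1.48 in replicates 1 and 2, on 5810 or more estimated fragments per library. The limma difference of 0.73 ± 0.13 did not pass (adjusted p = 0.152). Without MSC KO-labelled library 1 the difference was 0.63, and without MSC KO-labelled library 2 it was 0.84. Without WT library 1 or 2 it was 0.66 or 0.8. In the authors' deposited table Lif was not called in the first table (q = 0.276) or in the second (q = 0.999). Closest to its pair of differences were Gemin8 (distance 0.01), Hk2, a hexokinase gene (0.03), and Gls2, a glutaminase gene (0.03). Hk2 was at 39.9 and 30.6 FPKM under the MSC KO label and at 20.8 FPKM in each WT library.

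Osm, 16.5 kb from Lif, was at 31.3 and 30.8 FPKM under the MSC KO label and at 34.9 and 33.5 FPKM in WT (chromosome 11, mm9, 4136787 to 4141029). The ratios were 0.898 and 0.92 in the first and second table. The difference of -0.13 ± 0.09 did not pass by limma (adjusted p = 0.466), and 58.9% and 67.4% of genes tested had a larger difference in size in the first and second table. Within 250 kb of Lif and Osm 13 other genes are listed, 9 of which were tested, with a median difference of 0.28 and a range of -0.61 to 5.2. Of these 1 was 2-fold apart in the same direction in both tables, Mir3060, a small RNA whose symbol shares the locus of Rnf215 and Ccdc157. Gatsl3 was at 73.3 and 30.6 FPKM under the MSC KO label and 30.6 and 27.3 FPKM in WT, and so stood apart for replicate 1. Tbc1d10a, a GTPase-activating protein gene, was at 49.3 and 37 FPKM under the MSC KO label and 30 and 27.9 FPKM in WT (0.55 ± 0.12, limma adjusted p = 0.178). Mtmr3, a phosphoinositide phosphatase gene, had the lowest difference, at 15 and 15.2 FPKM under the MSC KO label and 22.7 and 24.4 FPKM in WT (-0.61 ± 0.09, limma adjusted p = 0.139).

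Of the IL-6 receptor chains, Il6ra lay above WT in both tables and Il6st in the first alone. Il6ra, the ligand-binding chain, was at 19.9 and 18 FPKM under the MSC KO label and at 13.3 and 14.8 FPKM in WT (chromosome 3, mm9, 89671985 to 89718666). Its ratios were 1.49 and 1.22 in replicates 1 and 2, and the difference of 0.41 ± 0.12 did not pass by limma (adjusted p = 0.214). Without MSC KO-labelled library 1 or 2 the difference of Il6ra was 0.34 or 0.47. Without WT library 1 or 2 it was 0.34 or 0.48. Il6st, which encodes gp130, was at 9.74 and 5.84 FPKM under the MSC KO label and at 7.51 and 6.69 FPKM in WT (chromosome 13, mm9, 113254277 to 113299549). The MSC KO-labelled values lay on either side of the WT values, and the limma difference was 0.08 ± 0.17 (adjusted p = 0.808). Without MSC KO-labelled library 1 the difference of Il6st was -0.24. Adam10, a protease that can shed IL-6 receptor from the cell surface, was at 25.5 and 22.7 FPKM under the MSC KO label and 33.7 and 34.7 FPKM in WT (-0.49 ± 0.1, limma adjusted p = 0.175). Adam17, another such protease, was at 9.99 and 13.9 FPKM under the MSC KO label and 12.4 and 13.8 FPKM in WT.

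By level, WT libraries ranked Lif, Osm, Il6ra, Il6st, Il3, Csf2 and Csf1 from high to low in both replicates, above the beta chains. The 2 WT values of each of these genes did not overlap those of the next in that order, as for Il6st (6.69 and 7.51 FPKM) and Il3 (5.11 and 5.79 FPKM). MSC KO-labelled library 1 placed Il3 between Osm and Il6ra, and MSC KO-labelled library 2 placed Il3 next after Lif, with Csf2 after it and ahead of Osm. Of the 9 genes, 7 passed the filter on low values, and the 2 that did not were the beta chain genes. Of the 7, 0 passed the limma test, which called 1 of 10603 genes (0.00943%). An unadjusted p under 0.05 was reached by 3 of them, all higher (Il3, Lif and Il6ra), as by 9.20% of all genes tested in that direction. In sign, 4 of the 7 lay above WT in each table and 1 below, against 31.2% and 37.5% of all genes, and 2 had opposite signs, against 30.9%. Of the 7, Il3 alone was at least 2-fold higher in both tables, as were 1.32% of all genes, and 0 were 2-fold lower in both (0.811% of all genes; 2.13% in either direction). A difference of 2-fold or more above WT was reached by Il3 in the first table (3.51% of all genes) and by Il3 and Csf2 in the second (2.62%). The median difference of the 7 was 0.41, and that of all genes tested was -0.02. The 9 genes were chosen with earlier results of these data known, so these counts only describe them.

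**Figure D3:**
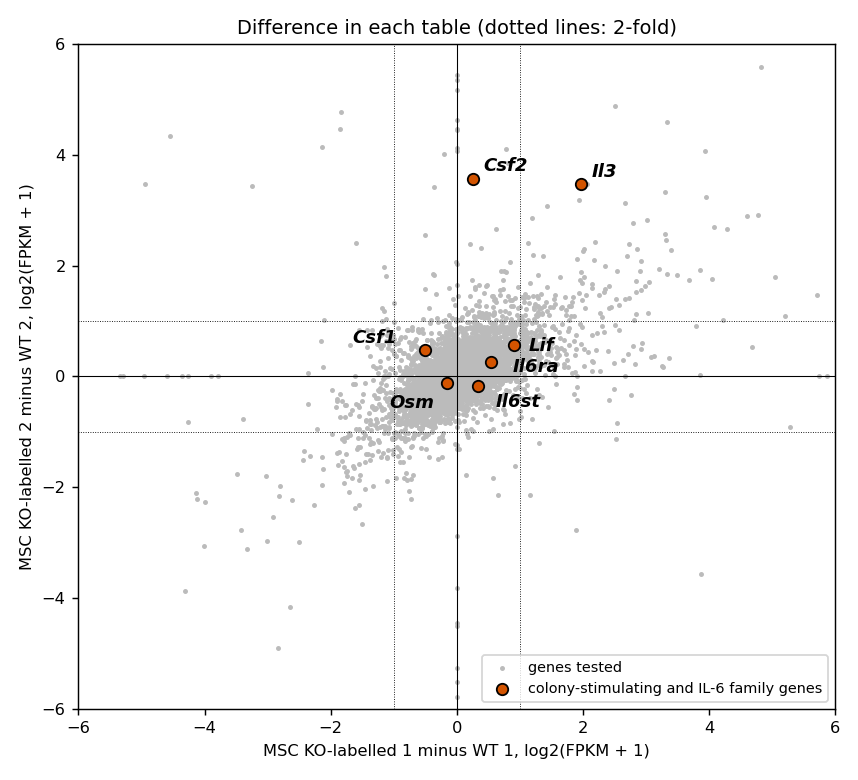
Difference of MSC KO-labelled minus WT on the log2(FPKM + 1) scale in the first table (x) and the second table (y) for the 10603 genes tested (grey) and the 7 tested colony-stimulating and IL-6 family genes (orange), with 38 genes outside the axes. Il3 lies beyond 2-fold in both tables (1.97 and 3.47), Csf2 in the second alone (0.25 and 3.57), and Csf1 and Il6st fall in the quadrants of opposite sign.

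Other ligands and receptor chains of these families were mostly low. The tables shared 12 of 13 ligand genes on the list, of which 4 passed the filter on low values, and of 12 receptor chain genes 3 did. Il5, which shares the beta chain, was at 5.01 and 2.67 FPKM under the MSC KO label and 0.674 and 0.359 FPKM in WT (1.64 ± 0.19, limma adjusted p = 0.122), and unlike Il3 and Csf2 its higher value was in MSC KO-labelled library 1. Clcf1, a gp130 ligand gene, was at 6.75 and 6.43 FPKM under the MSC KO label and 4.73 and 4.91 FPKM in WT (0.38 ± 0.1, limma adjusted p = 0.201). Ebi3, a subunit of IL-27 and IL-35, was at 27.6 and 62.4 FPKM under the MSC KO label and 28 and 30 FPKM in WT, and so stood apart in MSC KO-labelled library 2. Il27ra, the IL-27 receptor chain that pairs with gp130, was at 25.6 and 22 FPKM under the MSC KO label and 24 and 23.8 FPKM in WT. The partner chains for LIF and oncostatin M were low in every library, with Lifr between 0.136 and 0.222 FPKM and Osmr between 0.0454 and 0.23 FPKM. Il6 itself was at 0.453 and 0.158 FPKM under the MSC KO label, and listed at 0 in WT 1 and at 0.0566 FPKM in WT 2.

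Of 9 tested signal transducer genes 0 passed by limma. Of these 4 lay above WT and 3 below in both tables, against 31.2% and 37.5% of all genes, with a median difference of -0.02. Stat5a, a transducer for IL-3 and GM-CSF, was at 103 and 77.9 FPKM under the MSC KO label and 48.8 and 51.4 FPKM in WT (0.83 ± 0.16, limma adjusted p = 0.154). Jak2, the kinase bound to the beta chain, was at 63.3 and 34.1 FPKM under the MSC KO label and 25.4 and 26.5 FPKM in WT. Jak1, which acts with gp130, was at 37.2 and 36.2 FPKM under the MSC KO label and 44.4 and 46.4 FPKM in WT, and the adaptor gene Shc1 at 26.6 and 23.7 FPKM under the MSC KO label and 29.7 and 29.6 FPKM in WT. For Stat3 the estimate had failed for replicate 1, and for replicate 2 it was at 177 FPKM in the MSC KO-labelled library and 108 FPKM in WT (q = 0.563 in the authors' deposited table).

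Feedback inhibitors and STAT target genes lay mostly above WT. Of 10 tested, 8 were higher and 0 lower in both tables, against 31.2% and 37.5% of all genes, with a median difference of 0.47, and 0 passed by limma. An unadjusted p under 0.05 was reached by 5 of them, all higher, as by 9.20% of all genes in that direction. Like the other lists, this list was chosen with earlier results of these data known, so its counts only describe the genes on it. Socs3, the inhibitor of gp130 signalling, was at 80.1 and 38.8 FPKM under the MSC KO label and 9.83 and 9.62 FPKM in WT (2.41 ± 0.29, limma adjusted p = 0.13). Survival genes were among those above WT. Mcl1 was at 131 and 142 FPKM under the MSC KO label and 75.2 and 78.7 FPKM in WT, and Bcl2l1 at 123 and 163 FPKM under the MSC KO label and 79.5 and 79.9 FPKM in WT. The kinase gene Pim2 was at 84.7 and 107 FPKM under the MSC KO label and 48.9 and 51.4 FPKM in WT. Pim2 and Bcl2l1 had their higher value in MSC KO-labelled library 2, as Il3 did, and Socs3 in library 1.

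Regulators of Csf2 and Il3 transcription in T cells were also mostly above WT. Of 14 tested, 10 were higher and 1 lower in both tables, against 31.2% and 37.5% of all genes, with a median difference of 0.26, and 0 passed by limma. This list too was chosen with earlier results of these data known, so its counts only describe the genes on it. Bhlhe40, a basic helix-loop-helix factor needed for GM-CSF production by mouse T helper cells, was at 224 and 234 FPKM under the MSC KO label and 129 and 134 FPKM in WT (0.79 ± 0.09, limma adjusted p = 0.12). Its difference was nearly equal in the tables (0.79 and 0.8), where that of Csf2 was 0.25 and 3.57. Batf, an AP-1 factor, was at 188 and 81 FPKM under the MSC KO label and 25.2 and 27.5 FPKM in WT, and Fos at 4.04 and 1.82 FPKM under the MSC KO label and 0.819 and 1.02 FPKM in WT. Batf and Fos had their higher value in MSC KO-labelled library 1, opposite to Il3 and Csf2. Others on the list, among them Rel, Jun and Nfkb1, had theirs in MSC KO-labelled library 2. The part of these regulators in the levels of Il3 and Csf2 was not tested. Nfatc1, a factor of T cell receptor signals, was at 19.4 and 18.6 FPKM under the MSC KO label and 18.7 and 18.1 FPKM in WT.

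**Figure D4:**
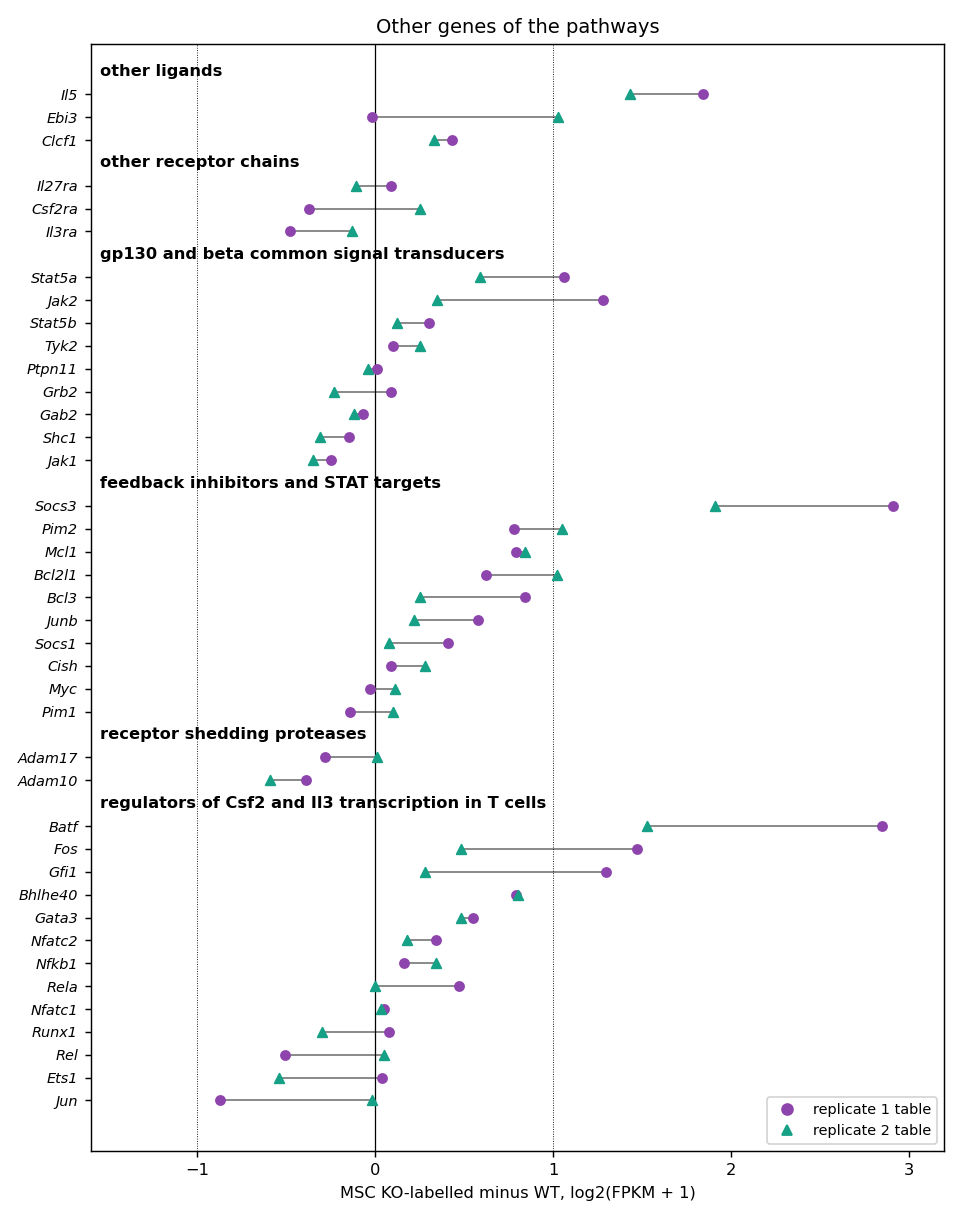
Difference of MSC KO-labelled minus WT on the log2(FPKM + 1) scale in the replicate 1 table (circles) and the replicate 2 table (triangles) for genes of 6 lists that passed the filter, with dotted lines at 2-fold and 2 such genes not drawn. Socs3, Il5 and Batf lie beyond 2-fold in both tables, while the signal transducers are spread around 0.

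Most markers of other cells that make or bind these cytokines were low, while Kit, Cd8b1, Cd79b and Cd68 were above 1 FPKM in every library. Of 8 mast cell and basophil markers 7 were listed at 0 in MSC KO-labelled library 1 and in both WT libraries and 6 in MSC KO-labelled library 2, Cpa3, Fcer1a and Ms4a2 at 0 in all. The summed level, 2.47 and 15 FPKM under the MSC KO label and 10.2 and 9.81 FPKM in WT, was almost wholly Kit. Of 10 myeloid markers the sum was 4.74 and 4.6 FPKM under the MSC KO label and 2.59 and 1.81 FPKM in WT, mostly Cd68, while Lyz2 was at 0.231 and 0.557 FPKM under the MSC KO label and 0.365 and 0.213 FPKM in WT. The 6 B cell markers summed to 6.17 and 5.07 FPKM under the MSC KO label and 7.38 and 7.12 FPKM in WT, mostly Cd79b. Cd8b1 was at 8.56 and 19.1 FPKM under the MSC KO label and at 9.75 FPKM in each WT library, and Cd8a at 0.571 and 0.658 FPKM under the MSC KO label and 1.58 and 1.9 FPKM in WT. The part of Kit and Cd8b1, which like Csf2 were highest in MSC KO-labelled library 2, in the level of Csf2 was not tested.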

How the data were processed

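Reads were aligned by the authors to the mouse genome mm9 with TopHat, per the submitters' processing notes. No source used here gives the annotation, the counting program or a version. The authors deposited 2 tables of genes, 1 for each replicate number, of 24366 and 24752 rows. No header names the unit: the layout is that of Cuffdiff, and the authors' values were taken to be FPKM. The deposited p-values and q-values are the authors' tests of 1 library against 1. Whether the tables were scaled together is not stated, so comparisons rest on the difference within a table. Symbols were joined over both tables, with the row of highest mean for a repeated symbol and without 3 symbols at loci that do not overlap and 6 with a failed estimate.

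Values were taken as log2(FPKM + 1) for the 10603 genes with a mean of at least 1 FPKM, and the MSC KO minus WT difference was fitted with limma 3.58.1 (R 4.3.3), blocking on the table, using a trended prior, two-sided tests and Benjamini-Hochberg adjustment over all of them. The residual had 1 degree of freedom. The steps were tested on simulated data with the same spread in all 4 libraries of a gene and no effect of the table. The real libraries differ from that setting: the median log2 difference between replicates was 0.28 under the MSC KO label and 0.097 in WT. Depth was estimated from single-transcript genes over 2500 bp, and fragments from the longest GENCODE M21 transcript, which makes both approximate. Per-gene estimates of depth outside a preset range were left out before the median was taken. 3' UTRs are as GENCODE annotates them. Upstream sequences are from RefSeq (GRCm38.p6), which matched 7 of the 9 genes by symbol. Genes named are the 9, list members by size of the smaller difference, and ligands and receptor chains at 1 FPKM or more. Neighbours within 250 kb and the nearest patterns are named too. Il6, Il5ra, Lifr, Osmr, Nfatc1, Rel, Jun, Nfkb1, Adam17 and the markers given are further to that rule. The members and lists were chosen with earlier results of these data known. Alternatives were another pseudocount, filter, normalization, prior and design, and leaving out each library. Some genes of the lists enter the counts and are not reported by name here.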

Additional observations from a re-analysis of the deposited data

How the results depend on the processing

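The limma count of genes called was 1, and it was 0 with no filter on low values, with quantile normalization and with a prior without trend, 7 with libraries rescaled to the same sum, 153 with no replicate block and 26 without symbols of small RNAs, which was chosen after seeing the data. It ran from 0 to 2672 when 1 library was left out, in fits without the block where the lone sample is taken to vary like the other group. Of the colony-stimulating and IL-6 family genes 0 were called by limma, also with no replicate block, and 0 to 3 when 1 library was left out: Il3, Csf2 and Lif without MSC KO replicate 1, and Il3, Lif and Il6ra without MSC KO replicate 2. Leaving out either MSC KO-labelled library raised the calls over all genes far above those of the main fit. A member called there thus shares this with many other genes, and no weight is put on its call. Over the 11 alternatives the difference of Il3 ran from 1.89 to 3.55, that of Csf2 from 0.2 to 3.62, that of Lif from 0.63 to 0.84, that of Il6ra from 0.34 to 0.48 and that of Osm from -0.17 to -0.11, with no change of sign. Csf1 ran from -0.36 to 0.32 as 1 library was left out, with 0.13 without WT replicate 1 and 0.32 without MSC KO replicate 1, and Il6st from -0.24 to 0.41, the lowest without MSC KO replicate 1. The count of genes with a 2-fold difference of like sign in each table was 226, and 606 at 1.5-fold. The replicate numbers share a table and no stated animal, and deviations of same-numbered samples had a correlation of 0.0589 across genes. Csf2rb and Csf2rb2 stayed under the filter, and at 1.7 to 5.4 estimated fragments where listed above 0 no difference between the labels was detectable at this depth.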
